A study of Mus musculus with 8 samples.

Results

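The transcripts of 10 genes for histone chaperones and their partners in S phase, of 55487 genes measured, were followed in muscle stem cells (MuSCs) from aged mice. Newly made histones do not reach DNA unaccompanied. Histone chaperones bind H3-H4 and H2A-H2B after synthesis, pass them from one carrier to the next, and release them onto daughter strands behind the replication fork. Cells that enter S phase need this supply line, and MuSCs, which rest as quiescent cells on the myofiber, enter S phase when they are activated in culture. Nasp encodes the carrier that holds the soluble reserve of H3-H4, and Hat1 encodes the enzyme that acetylates new H4. Asf1a and Asf1b encode the ASF1 paralogs, which hand H3-H4 to the depositing complexes. Chaf1a and Chaf1b encode the large and the middle subunit of CAF-1, the complex that deposits H3-H4 at forks. Rbbp4 and Rbbp7 encode WD-repeat proteins that bind H4 as partners of CAF-1 and HAT1. Ssrp1 and Supt16 encode the subunits of FACT, which reorganizes nucleosomes ahead of polymerases. The genes were chosen by name with their difference in expression between NAM/PN and vehicle in these same libraries already known, so that the values describe these libraries and are not independent evidence of a change.

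All 10 genes were found among the 55487 genes of the table by Ensembl identifier, and all 10 were among the 12060 genes that passed the filter on low counts and were tested. MuSCs sorted from old wild-type C57BL/6JRj males spent 72 hours in growth medium that held the combination of nicotinamide and pyridoxine (NAM/PN, added at 1 mM without a statement of the share of each) or vehicle (1% DMSO). From 8 mice, 4 pools of 2 mice were made, and each pool gave 1 library with vehicle and 1 with NAM/PN. No gene was altered and every library came from old mice, so that no young group entered these comparisons. The sorting gate described for the study selects α7-integrin and CD34 and leaves out CD31, CD45, CD11b and Sca1.

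The 8 libraries held between 6472484 and 10163101 counted reads. Expression is given as normalized CPM (counts scaled to a common library size), and 3 counts, the limit of detection, corresponded to 0.295 to 0.464 CPM of the library total. Vehicle replicate 3 stood apart, with 18.7% of its reads on a ribosomal RNA gene against 9.09% to 9.59% in the other vehicle libraries. NAM/PN replicate 4 stood apart as well, with 5.22% on that gene against 10.2% to 11.6% in the other NAM/PN libraries. Its chi-square over degrees of freedom was 67.4 to 78.6 against the other NAM/PN libraries, which had 22.8 to 25.5 among themselves. All 8 listed markers of MuSCs and myoblasts passed the filter, with a summed level of 2909 to 3369 CPM in vehicle cultures and 2335 to 2929 CPM with NAM/PN. Of 8 immune markers 7 were at 0 in every library, and of 8 endothelial markers 4 were, Emcn and Cldn5 among them. The 8 markers of differentiating myocytes moved with the treatment. Their summed level was 1453 to 2763 CPM in vehicle cultures and 193 to 569 CPM with NAM/PN, all 8 had a log2 fold change below 0, and 7 of the 8 were called lower. Of all tested genes, 0.995% were called lower (adjusted p under 0.05 in edgeR's test). In bulk RNA, fewer cells of a type and less RNA per cell cannot be told apart, and the part of these myocyte transcripts in the values of the histone chaperones was not tested.

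By the sign of the fitted log2 fold change, 8 of the 10 histone chaperone genes were higher with NAM/PN, beside 49.8% of all tested genes and 52.8% of those with a mean log2 CPM of 4 or more. The median log2 fold change of the 10 genes was 0.26, beside -0.0022 over all tested genes. A single gene, Nasp, was called higher and 0 were called lower at an adjusted p under 0.05 (quasi-likelihood test of edgeR, adjusted over all tested genes after Benjamini and Hochberg). Over all tested genes, 0.282% were called higher and 0.995% lower, or 1.28% in all. An unadjusted p under 0.05 was found for 3 of the 10 genes, Nasp, Chaf1b and Hat1, all higher, where 3.96% of all tested genes were higher and 5.32% lower at this level. For 2 of the 10 genes, Nasp and Chaf1b, every NAM/PN library lay above every vehicle library, as for 2.79% of all tested genes, and for 0 of the 10 genes every NAM/PN library lay below, as for 4.42%. These 2 genes were also higher in all 4 pools, as were 8.56% of all tested genes. Summed over the 10 genes, expression was between 2229 and 2600 CPM with vehicle and between 2815 and 3020 CPM with NAM/PN. Nasp made the largest part of that difference. Since the list was drawn up from this same contrast, nothing is read from these counts about the list as a whole.

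**Figure D1:**
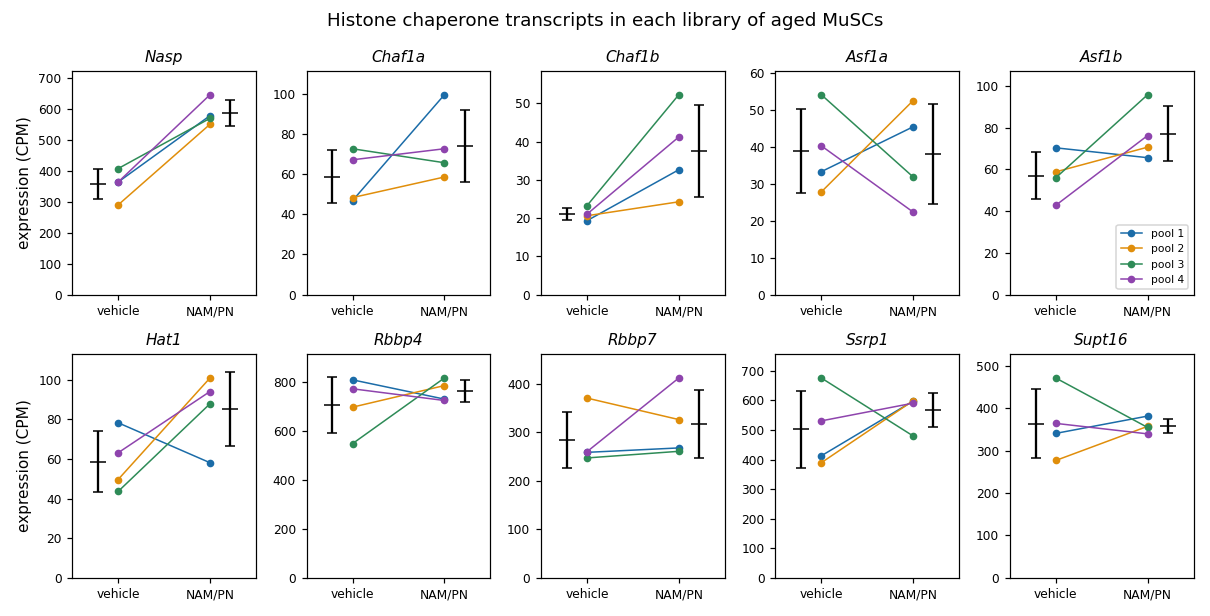
Expression of the 10 histone chaperone genes in CPM (y axes, each starting at 0) with vehicle and with NAM/PN (x axes). Dots are libraries, lines join the libraries of the same pool of mice, and horizontal ticks with bars are the mean and SD of 4 libraries. The 4 NAM/PN libraries of Nasp lie between 551 and 647 CPM, above the vehicle range of 290.1 to 408 CPM. Apart from Nasp and Chaf1b, the vehicle and NAM/PN ranges of each gene overlap.

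The upstream sequences of 4 of these genes show the promoters of the carrier that was called (Nasp), of both CAF-1 subunits, and, for contrast, of Rbbp4, the most abundant of the 10 with a small difference. Each holds the 250 bases before the transcription start in RefSeq (GRCm38.p6), read 5′ to 3′ on the strand of the gene, and capitals mark matches to the motifs described after them.
Nasp, chr4:116627952-116628201, minus strand: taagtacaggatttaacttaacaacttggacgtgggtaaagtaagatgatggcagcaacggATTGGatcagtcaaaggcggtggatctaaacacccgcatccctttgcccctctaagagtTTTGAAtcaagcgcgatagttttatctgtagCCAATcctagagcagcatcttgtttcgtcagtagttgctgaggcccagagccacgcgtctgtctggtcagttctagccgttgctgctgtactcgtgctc
Chaf1a, chr17:56040166-56040415, plus strand: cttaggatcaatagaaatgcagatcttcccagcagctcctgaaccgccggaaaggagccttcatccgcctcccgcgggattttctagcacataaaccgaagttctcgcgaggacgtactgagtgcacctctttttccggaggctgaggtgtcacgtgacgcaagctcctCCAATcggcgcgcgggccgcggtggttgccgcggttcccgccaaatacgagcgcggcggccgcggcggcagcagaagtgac
Chaf1b, chr16:93883651-93883900, plus strand: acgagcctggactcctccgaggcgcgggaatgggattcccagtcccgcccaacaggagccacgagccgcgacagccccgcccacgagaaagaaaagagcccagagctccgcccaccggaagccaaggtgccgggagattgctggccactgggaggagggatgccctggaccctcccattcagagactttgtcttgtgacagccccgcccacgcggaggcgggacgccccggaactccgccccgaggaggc
Rbbp4, chr4:129335371-129335620, minus strand: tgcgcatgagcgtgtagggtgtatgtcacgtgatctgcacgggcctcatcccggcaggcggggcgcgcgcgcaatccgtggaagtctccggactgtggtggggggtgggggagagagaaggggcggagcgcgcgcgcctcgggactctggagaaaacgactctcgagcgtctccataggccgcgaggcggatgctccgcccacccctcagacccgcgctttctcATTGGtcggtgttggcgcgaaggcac

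Several kinds of element were searched on both strands of the 250 bases, because they are known from promoters of cell cycle genes. They were the CCAAT box bound by NF-Y, the CHR element TTTGAA bound in genes of the G2 phase and mitosis, and E2F-type sites in the spellings TTTCCCGC, TTTGGCGC, TTTCGCGC and TTTGCCGC. A CCAAT box was present upstream of 7 of the 10 genes and in 33.8% of all promoters in the table, or 35.6% of the promoters of tested genes. The Nasp promoter held CCAAT boxes at -189, on the other strand, and at -99, with a CHR match at -130 between them (first base of each match, counted from the transcription start). Chaf1a held a CCAAT box at -81, and Rbbp4 held one at -26 on the other strand. Chaf1b held none of the elements in the spellings searched. A CHR match was found for 3 genes, Nasp, Asf1b and Ssrp1, and in 16% of all promoters, or 10.2% of the promoters of tested genes. An E2F-type site in these spellings was found only before the second start of Ssrp1, at -231, and in 1.86% of all promoters, or 3.54% of the promoters of tested genes. Other spellings of E2F sites were not searched, so that a promoter without a match may still hold one. The matches in the 10 genes did not overlap each other. For Asf1a, Asf1b, Hat1, Supt16 and the second start of Ssrp1 the RefSeq start lies inside the gene as GENCODE annotates it, so that 177 to 250 of the 250 bases overlap that gene. The 4 CCAAT boxes of Asf1b and its CHR match at -14 are among those placed relative to that start alone. A match is a stretch of letters and not a measured site, and the genes with and without a match both included genes with higher and with nearly equal expression. The Nasp window had 48.4% G and C and 11 CpG, against 61.2% with 28 CpG for Chaf1a, 68.4% with 21 for Chaf1b and 67.6% with 30 for Rbbp4.

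**Figure D2:**
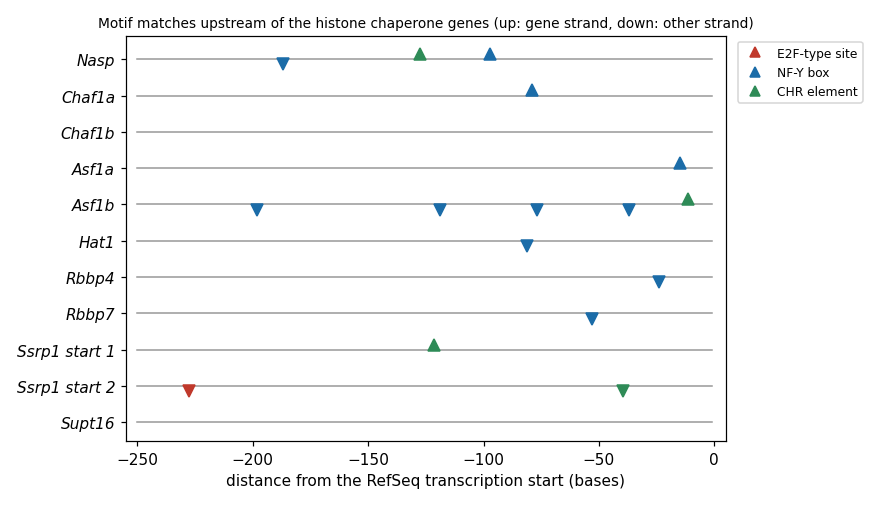
Motif matches in the 250 bases before the RefSeq transcription start of each gene (x axis, distance in bases). Rows are genes, with both starts of Ssrp1, and triangles point up for the strand of the gene and down for the other strand. NF-Y boxes (blue) appear for 7 of the 10 genes and CHR elements (green) for 3. The only E2F-type site in the spellings searched (red) lies before the second start of Ssrp1.

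Nasp (ENSMUSG00000028693, chromosome 4 of GRCm38 from 116601052 to 116627941, minus strand) had the clearest difference among the 10 genes. With vehicle it was expressed at 364, 290.1, 408 and 364 CPM in pools 1 to 4, and with NAM/PN at 579, 551, 570.3 and 647 CPM. The groups did not overlap, and relative to their mean the 4 NAM/PN libraries were closer to each other (coefficient of variation 7.09%) than the vehicle libraries (13.7%). Mean expression was 356 ± 48.8 CPM in vehicle cultures and 587 ± 41.6 CPM after NAM/PN (SD, n = 4 each), and the fitted log2 fold change was 0.72 (SE 0.16, 95% interval 0.39 to 1.05) or a 1.65-fold level. In edgeR's test its adjusted p was 0.0208, or 0.0348 when the replicate block of pools was fitted. Nasp ranked 112th of the 12060 genes by p. Within pools the log2 ratios were 0.67, 0.93, 0.48 and 0.83, so that each pool of mice showed the direction. Between 2338 and 6923 reads per library stood behind these values. The size of the difference hardly depended on single libraries, with log2 fold changes of 0.63 to 0.80 when any library or pool was left out, but the call did. The adjusted edgeR p rose to 0.0598 without vehicle replicate 1, 0.132 without vehicle replicate 2, 0.0862 without vehicle replicate 4, 0.0733 without NAM/PN replicate 1 and 0.0553 without NAM/PN replicate 3. It was 0.0104 without vehicle replicate 3, the library rich in ribosomal RNA. Leaving out whole pools gave adjusted edgeR p-values of 0.175 without pool 1, 0.245 without pool 2 and 0.0980 without pool 4, and of 0.0293 without pool 3. The reads of this kit come from the 3′ end of transcripts, and the somatic and testis forms of NASP, which differ by splicing within the gene, cannot be told apart in them. GENCODE lists 8 transcripts of Nasp, 3 of them coding. A processed pseudogene, Gm6986, matches 151 of the last 300 bases at 90.1% identity and had 41 reads in all libraries together, beside 31385 for Nasp.

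Hat1 (chromosome 2, from 71388958 to 71441622) encodes the acetyltransferase that marks H4 while it is still in the cytoplasm and bound to the same chaperones. Its expression was 78.3, 49.6, 43.6 and 63.1 CPM with vehicle in pools 1 to 4 and 58.1, 101, 87.9 and 94.1 CPM with NAM/PN. It was higher with NAM/PN in pools 2, 3 and 4 and lower in pool 1, and the groups overlapped. The log2 fold change was 0.54 (SE 0.24, 95% interval 0.032 to 1.04), with an unadjusted p of 0.0383 and an adjusted p of 0.483 in edgeR's test. With the replicate block its unadjusted edgeR p was 0.0513. Its log2 fold change was 0.85 without pool 1, 0.38 without pool 2 and 0.40 without pool 3. Hat1 and Nasp thus shared a direction in 3 of 4 pools, and the ratio of Nasp to Hat1 in a library ranged from 4.65 to 9.35 with vehicle and from 5.46 to 9.96 with NAM/PN.

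Neither CAF-1 subunit was called. Chaf1b (chromosome 16, from 93883901 to 93906115) had the largest fitted fold change and the lowest expression of the 10 genes. It was expressed at 19.3, 20.6, 23.2 and 21.003 CPM with vehicle in pools 1 to 4, a narrow range, and at 32.6, 24.2, 52.2 and 41.2 CPM with NAM/PN. No NAM/PN library fell into the vehicle range, although that of pool 2, at 24.2 CPM, lay close to the highest vehicle library at 23.2 CPM. Mean expression was 21.03 ± 1.63 and 37.6 ± 11.97 CPM (SD, n = 4 each), and the fitted log2 fold change was 0.84 (SE 0.32, 95% interval 0.17 to 1.504). The unadjusted p was 0.0167 and the adjusted p was 0.336 in edgeR's test (0.439 with the replicate block), so that Chaf1b was not called. At 163 to 441 reads per library, its counting error was larger than that of Nasp. The biological coefficient of variation that edgeR estimated was 0.328 for Chaf1b and 0.179 for Nasp, while over the libraries themselves the coefficient of variation of Chaf1b was 7.75% with vehicle and 31.9% with NAM/PN.

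Chaf1a (chromosome 17, from 56040439 to 56072289), which encodes the subunit that binds PCNA at the fork, was at 46.9, 48.4, 72.7 and 67.3 CPM with vehicle and at 99.7, 58.7, 65.8 and 72.8 CPM with NAM/PN. The groups overlapped, and pool 1 alone accounted for most of the difference, with a log2 ratio of 1.08 against -0.14 to 0.28 in the other pools. The fitted log2 fold change was 0.34 (95% interval -0.16 to 0.84, adjusted p = 0.788 in edgeR's test), and it was 0.16 without NAM/PN replicate 1, 0.064 without pool 1 and 0.51 without pool 3. The ratio of Chaf1a to Chaf1b transcripts was 2.35 to 3.20 with vehicle and 1.26 to 3.06 with NAM/PN. In pools 1 and 2 this ratio was slightly higher with NAM/PN, and in pools 3 and 4 it was lower.

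Neither of the ASF1 paralogs was called. Asf1b (chromosome 8, from 83955507 to 83970197), the form known to be tied to proliferation, was at 70.3, 58.8, 55.9 and 42.8 CPM with vehicle in pools 1 to 4 and at 65.6, 70.6, 95.8 and 76.2 CPM with NAM/PN. It was higher in pools 2, 3 and 4, and the ranges of the groups met between 65.6 and 70.3 CPM. Its log2 fold change was 0.44 (SE 0.23, 95% interval -0.038 to 0.91, adjusted p = 0.608 in edgeR's test). Asf1a (chromosome 10, from 53596757 to 53609225), the form known to work with HIRA outside of S phase as well, was at 33.3, 27.8, 54.1 and 40.3 CPM with vehicle and at 45.4, 52.5, 31.8 and 22.3 CPM with NAM/PN. Pools 1 and 2 were higher and pools 3 and 4 lower with NAM/PN, and the fitted log2 fold change of -0.032 had a wide 95% interval of -0.69 to 0.63 (adjusted p = 0.994 in edgeR's test). It was 0.16 without vehicle replicate 3. The ratio of Asf1b to Asf1a showed the split between pools, since it went from 2.11 to 1.44 in pool 1 and from 2.12 to 1.34 in pool 2, but from 1.03 to 3.01 in pool 3 and from 1.06 to 3.41 in pool 4. Of all the ratios examined, this one had the widest spread within a condition (SD of 0.64 on the log2 scale). The difference between the paralogs was not tested, because the genes were listed with the contrast known.

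Rbbp4 and Rbbp7, which also serve in chromatin complexes unrelated to replication, were among the more abundant of the 10. Rbbp4 (chromosome 4, from 129307100 to 129335370) was at 809, 697, 548 and 773 CPM with vehicle and at 730.3, 786, 817 and 725 CPM with NAM/PN. The NAM/PN libraries lay within the upper part of the vehicle range but for the one of pool 3, and the log2 fold change was 0.11 (95% interval -0.21 to 0.44, adjusted p = 0.936 in edgeR's test). Rbbp7 (chromosome X, from 162760402 to 162779092) was at 258, 370.0, 247 and 259.5 CPM with vehicle and at 267, 326, 260.4 and 411 CPM with NAM/PN. A high vehicle library in pool 2 and a high NAM/PN library in pool 4 set its range, and the log2 fold change was 0.16 (95% interval -0.24 to 0.55, adjusted p = 0.920 in edgeR's test). For Rbbp4 the interval leaves room for a level between 0.865-fold and 1.35-fold of vehicle. The fitted 1.65-fold level of Nasp lies outside it, but the interval of Nasp, 1.31-fold to 2.06-fold, overlaps it.

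FACT is built from SSRP1 and SPT16 in equal parts. Ssrp1 (chromosome 2, from 85037234 to 85047109) was at 413, 389, 676 and 531 CPM with vehicle and at 598, 599, 479.5 and 591 CPM with NAM/PN. Supt16 (chromosome 14, from 52160414 to 52197416) was at 341, 277, 472 and 365 CPM with vehicle and at 382, 358, 355 and 339.8 CPM with NAM/PN. Vehicle replicate 3 had the highest level of both genes, and vehicle replicate 2 the lowest. The log2 fold changes were 0.17 for Ssrp1 (95% interval -0.20 to 0.55, adjusted p = 0.893) and -0.020 for Supt16 (95% interval -0.38 to 0.34, adjusted p = 0.994, both from edgeR's test). Without vehicle replicate 3 they were 0.35 and 0.12, and without vehicle replicate 2 they were 0.070 and -0.13. Ssrp1 was also at 0.090 without vehicle replicate 1, and with single libraries or pools left out it ran from 0.043 to 0.42. Among the vehicle libraries the SD of the log2 ratio of Ssrp1 to Supt16 was 0.12, smaller than the SD of 0.37 for Ssrp1 and 0.32 for Supt16 alone. Among the NAM/PN libraries it was 0.16, no smaller than the SD of 0.16 for Ssrp1 and larger than that of 0.069 for Supt16. The ratio stayed between 1.21 and 1.74 in all 8 libraries. For Asf1b with Asf1a, Rbbp4 with Rbbp7 and Nasp with Hat1 the ratio had a larger SD than either gene alone in both conditions.

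**Figure D3:**
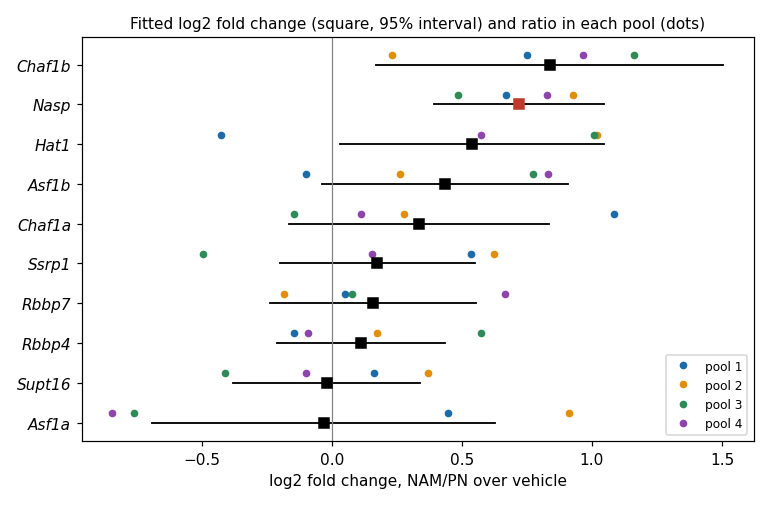
Log2 fold change of NAM/PN over vehicle (x axis) for the 10 genes (rows, ordered by size). Squares and lines are the fitted values with their 95% intervals, red for the gene called at an adjusted p under 0.05, and dots are the log2 ratios within each of the 4 pools. The intervals of Nasp, Chaf1b and Hat1 lie above 0, and for Nasp and Chaf1b alone all 4 pools lie above 0.

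**Figure D4:**
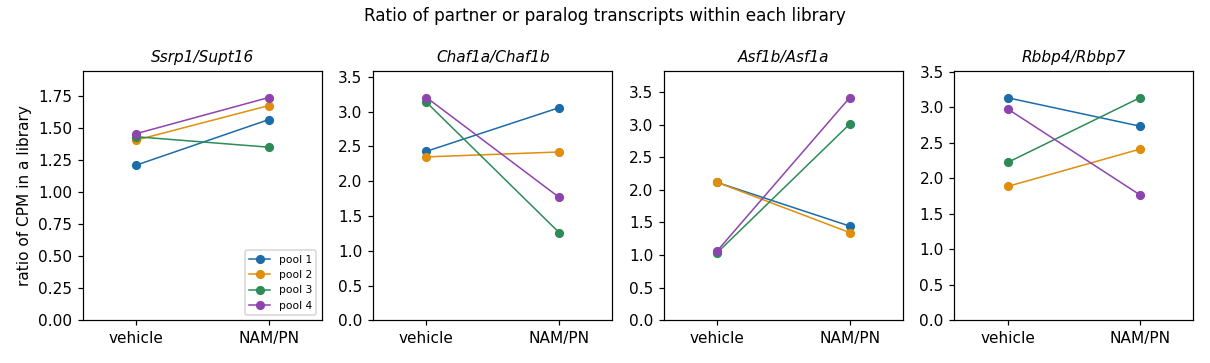
Ratio of CPM of partner or paralog transcripts within a library (y axes, starting at 0) with vehicle and with NAM/PN (x axes), with a line for each pool of mice. The ratio of Ssrp1 to Supt16 stays between 1.21 and 1.74, while that of Asf1b to Asf1a falls in pools 1 and 2 and rises in pools 3 and 4.

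The libraries that stood apart moved these values. Among the vehicle libraries, replicate 3 had the highest expression of Nasp, Chaf1a, Chaf1b, Asf1a, Ssrp1 and Supt16 and the lowest of Hat1, Rbbp4 and Rbbp7. Without it, all 10 genes had a log2 fold change above 0 and their median was 0.38. Without NAM/PN replicate 4, all 10 genes were above 0 as well, with a median of 0.25, and the adjusted edgeR p of Nasp was 0.0279. The number of the 10 genes that were higher with NAM/PN was 7, 9, 6 and 7 in pools 1 to 4, where 47.7% to 49.4% of all tested genes were higher in a pool. The part of the ribosomal RNA in these libraries was not tested.

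With vehicle, the order of the levels ran from Rbbp4 (707 CPM) through Ssrp1, Supt16, Nasp and Rbbp7 (284 CPM), with a step to Chaf1a, Hat1, Asf1b, Asf1a and Chaf1b (21.03 CPM). The kit counts the 3′ end of each transcript, so these levels in CPM stand for transcripts and were not divided by length. Only at 2 places did neighbours in this order not overlap between libraries, namely between Rbbp7 and Chaf1a and between Asf1a and Chaf1b. With NAM/PN, Nasp stood in second place after Rbbp4, at 551 to 647 CPM against 479.5 to 599 CPM for Ssrp1, which it overlapped. For the 10 genes the biological coefficient of variation was between 0.179 and 0.328, beside a median of 0.282 for the 7409 tested genes with a mean log2 CPM of 4 or more.

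For 5 of the 10 genes, the annotated 3′ end also belongs to a gene on the other strand. The last 300 bases of Chaf1a and Asf1a are also part of Ubxn6 (1624 reads in all libraries, against 4435 for Chaf1a) and Mcm9 (588 against 2507 for Asf1a). Those of Rbbp4, Rbbp7 and Supt16 are shared in part or whole with Sync (1043 against 48687), Txlng (354 against 20170) and Rpgrip1 (42 against 23916). The strand setting of the read counting was not given in the sources used here, and reads that fall into both genes of such a pair may have been set aside or assigned to either. The values of Chaf1a and Asf1a are the most exposed to this, and no such gene covers the 3′ end of Nasp, Chaf1b, Asf1b, Hat1 or Ssrp1.

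Histones themselves, the cargo of these proteins, were read from a list of 11 histone variants, whose transcripts carry poly(A) tails. Like the other lists, it was chosen with earlier results of these data known, so that its counts are a description only. All 11 had a log2 fold change above 0, beside 49.8% of all tested genes, with a median of 0.50 beside -0.0022. Of the 11, 2 were called higher and 0 lower, beside 0.282% and 0.995% of all tested genes. H1f0, which encodes the linker histone H1.0, was at 91.4, 68.9, 102 and 123 CPM with vehicle in pools 1 to 4 and at 148, 213, 162 and 270.0 CPM with NAM/PN. Its groups did not overlap, as for 2.79% of all tested genes in this direction. Its log2 fold change was 1.04 (SE 0.22, adjusted p = 0.0196 in edgeR's test, and 0.0158 with the replicate block). H3f3b, which encodes the replacement histone H3.3, was at 582, 528, 357 and 536 CPM with vehicle and at 690.2, 818, 904 and 891 CPM with NAM/PN. Its groups did not overlap either, with a log2 fold change of 0.72 (SE 0.17, adjusted p = 0.0404 in edgeR's test). With the replicate block the adjusted edgeR p of H3f3b was 0.0644, above the threshold, and the list then held 1 called gene. Both calls depended on single libraries. The adjusted edgeR p of H3f3b was between 0.0528 and 0.129 when any of the 8 libraries was left out. It was 0.0915 to 0.283 when a pool was left out. For H1f0 it was 0.0729 without vehicle replicate 1, 0.116 without vehicle replicate 2, 0.0697 without NAM/PN replicate 2 and 0.0511 without NAM/PN replicate 4, and 0.0961, 0.301 and 0.0552 without pools 1, 2 and 4. H2afz, which encodes H2A.Z, came next by p, with 20.96, 27.7, 17.7 and 43.1 CPM in vehicle cultures and 37.4, 34.4, 66.8 and 50.3 CPM with NAM/PN, overlapping groups and a log2 fold change of 0.79 (unadjusted p = 0.0264, adjusted p = 0.416 in edgeR's test). H2afz was named after its values were seen, and the last bases of its transcript match the noncoding Gm26623 (98.3% identity over 294 bases). H2afj had the smallest difference, with a log2 fold change of 0.049, which was below 0 without vehicle replicate 1 or 4 without NAM/PN replicate 4, or without pool 1 or 4. H3.3 is deposited by the HIRA and DAXX pathways at any time of the cell cycle, and H1.0 is known as a linker histone of cells that divide little.

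Replication-dependent histone genes give transcripts that end in a stem-loop and mostly lack poly(A) tails, and a kit that primes on poly(A) reads few of them. Of 70 such genes in the table, 20 were at 0 in every library and 16 were tested. Of the 16, 11 had a log2 fold change above 0 (median 0.39), beside 49.8% of all tested genes. In edgeR's test 0 were called, and 2 had an unadjusted p under 0.05, both higher, beside 3.96% of all tested genes. Hist1h1c had the smallest p, at 38.7 ± 12.9 CPM in vehicle cultures and 67.9 ± 15.5 CPM after NAM/PN (SD, n = 4 each), with a log2 fold change of 0.81 and an adjusted edgeR p of 0.229. Hist1h1e, with a log2 fold change of 0.015, had the smallest value among those at a mean log2 CPM of 4 or more. These genes form families of near-identical copies, and their counts are less certain for that reason. Of the 6 genes for processing of histone transcripts, 5 were above 0 and 0 were called (median 0.24). Slbp, whose product binds the stem-loop, was at 11.3 ± 4.03 and 26.6 ± 13.2 CPM (SD, n = 4 each), and had a log2 fold change of 1.24 (unadjusted p = 0.0119, adjusted p = 0.282 in edgeR's test), the only 1 of the 6 at an unadjusted p under 0.05. Its groups overlapped, and in pool 2 it was lower with NAM/PN (16.4 and 15.3 CPM). The NAM/PN libraries of pools 3 and 4 were at 40.5 and 35.1 CPM, against 15.3 CPM in those of pools 1 and 2. Casp8ap2 lay at the other end, at -0.25.

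Other histone chaperones and deposition factors made up a list of 32 genes. Of the 31 tested, 20 had a log2 fold change above 0, beside 49.8% of all tested genes, with a median of 0.11. In edgeR's test 0 were called, and 2 had an unadjusted p under 0.05, both higher, beside 3.96% of all tested genes. Npm1, which encodes nucleophosmin, was at 775 ± 58.6 CPM in vehicle cultures and 994 ± 80.5 CPM after NAM/PN (SD, n = 4 each), without overlap of the groups, and had a log2 fold change of 0.36 (adjusted p = 0.360 in edgeR's test). Nap1l1, a chaperone of H2A-H2B that was named after its values were seen, was the other, with a log2 fold change of 0.36 and an adjusted edgeR p of 0.497, also without overlap. Of all tested genes, 2.79% were higher without overlap of the groups. Hira, whose product deposits H3.3, had the lowest value, a log2 fold change of -0.42 (adjusted p = 0.875 in edgeR's test), and Oip5, of the centromere loading complex, the highest at 0.49 (adjusted p = 0.826) among genes with a mean log2 CPM of 4 or more. Both values depended on single libraries. For Hira the log2 fold change was -0.82 without NAM/PN replicate 1, -0.28 without vehicle replicate 2 and -0.21 without NAM/PN replicate 4, and for Oip5 it was 0.25 without vehicle replicate 2. With single libraries or pools left out, Hira ran from -0.999 to -0.15 and Oip5 from 0.25 to 0.73.

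Proteins of the replication fork, where CAF-1 acts, showed the same sign in most of the list. Of 27 genes, 25 had a log2 fold change above 0, beside 49.8% of all tested genes, with a median of 0.27. In edgeR's test 0 were called, while 5 had an unadjusted p under 0.05, all higher, beside 3.96% of all tested genes. In all 4 pools 8 of the 27 were higher, beside 8.56% of all tested genes. Tipin, of the fork protection complex, had the smallest p, at 88.9 ± 14.6 CPM in vehicle cultures and 125 ± 22.2 CPM after NAM/PN (SD, n = 4 each), with a fitted log2 fold change of 0.49 and an adjusted edgeR p of 0.406. Its partner Timeless had the highest log2 fold change at 0.83 (adjusted p = 0.440 in edgeR's test), or 0.53 without pool 2, and Pold3 the lowest at -0.075. Pcna, which encodes the clamp that CAF-1 binds, was at 55.5, 40.4, 68.8 and 58.5 CPM with vehicle and at 59.0, 53.5, 81.3 and 100.4 CPM with NAM/PN. It was higher within each of the 4 pools, but the groups overlapped, and its log2 fold change was 0.40 (95% interval -0.13 to 0.92, adjusted p = 0.743 in edgeR's test), or 0.21 without NAM/PN replicate 4. Of 20 general S phase and proliferation genes, 15 were above 0, beside 49.8% of all tested genes, with a median of 0.089. In edgeR's test 0 were called, with 2 at an unadjusted p under 0.05, both higher, beside 3.96% of all tested genes. Ccne1, which encodes cyclin E1, had the highest log2 fold change (0.60, adjusted p = 0.504) and E2f2 the lowest (-0.28, adjusted p = 0.832), both from edgeR's test. Ccne1 was at 0.36 without vehicle replicate 3, and E2f2 was at -0.46 without NAM/PN replicate 2 and -0.11 without NAM/PN replicate 4. Mki67, which marks cycling cells, had a log2 fold change of 0.041 (95% interval -0.36 to 0.44, adjusted p = 0.988 in edgeR's test). The histone chaperones and the fork proteins had medians of 0.26 and 0.27 and the proliferation genes 0.089, and these medians were not tested against each other. Since these lists were chosen with earlier results of these data known, their shared sign is a description and not independent evidence. For the lists of other histone chaperones, replication-dependent histones, histone transcript processing, fork proteins, and S phase and proliferation genes, the count of called genes was also 0 with DESeq2 and with voom.

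**Figure D5:**
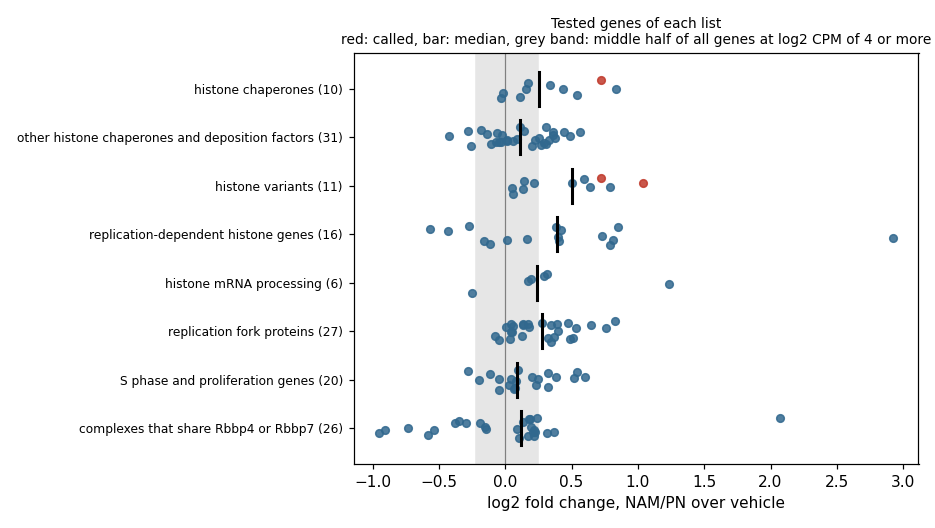
Log2 fold change of NAM/PN over vehicle (x axis) for the tested genes of each list (rows, with the number of tested genes). Dots are genes, red where called at an adjusted p under 0.05, black bars are medians, and the grey band spans the interquartile range of 7409 genes at a mean log2 CPM of 4 or more, from -0.22 to 0.25. The called genes are Nasp among the histone chaperones and H1f0 and H3f3b among the histone variants.

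The genes whose pattern over the 8 libraries was most like that of Nasp were sought among 7399 other tested genes with a mean log2 CPM of 4 or more, by Pearson's r of log2 CPM. They were Cpsf6 (r = 0.983), Slc7a6 (0.978), Paxbp1 (0.974), Tspan4 (0.970) and Marcksl1 (0.964). Each of the 5 had higher expression in every NAM/PN library than in every vehicle library, which is also what sets a high r with Nasp, because the libraries fall into 2 conditions and share 4 pools. Cpsf6, which encodes a cleavage and polyadenylation factor, was at 90.02 ± 10.3 CPM and 149 ± 11.6 CPM (SD, n = 4 each) and did not pass the test (log2 fold change 0.73, adjusted p = 0.0564 in edgeR's test). By Spearman's rank correlation, 1 of these 5 genes was again among the 5 most alike. Of the other histone chaperones, Chaf1b was the most like Nasp (r = 0.803), followed by Chaf1a (0.634), Asf1b (0.622), Hat1 (0.616) and Ssrp1 (0.597). For Supt16, Rbbp4 and Rbbp7, r was 0.293, 0.205 and 0.153, and for Asf1a it was -0.0046.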

How the data were processed

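RNA of MuSCs from 4 pools of 2 old mice, each cultured with vehicle and with NAM/PN, was sequenced with a QuantSeq 3′ kit. The deposited table holds the authors' raw counts per Ensembl gene, made by alignment to GRCm38 with RNASTAR and counting with htseq-count of HTSeq, without normalization. Annotation release, strand setting and handling of reads with several positions were not given in the sources used here. Totals ran from 6472484 to 10163101 counts per library. Floors of 3 counts cover counting error only, since reads of an amplified molecule are not independent.

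Libraries were grouped by treatment from the labels, and the pool number pairs them, since the same number names the same mice. Deviations from the condition means correlated at -0.0332 to 0.0313 across genes between libraries of a pool. Libraries of a condition differed beyond sampling noise in every pair (lowest chi-square over its degrees of freedom 22.8). Whether pools share culture or library days is not stated, so p-values measure the spread between these pools.

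Genes were filtered with filterByExpr (minimum count 10, minimum total 15), scaled by TMM factors and tested with edgeR 4.0.16 (glmQLFit, glmQLFTest) in R 4.3.3, with Benjamini-Hochberg adjustment over 12060 genes and a threshold of 0.05. The standard error was the log2 fold change divided by the root of F. Log2 CPM used a prior count of 2. Of the identifiers, 55141 were found in GENCODE M21 (GRCm38), the source of names and positions. Promoter sequences came from RefSeq (GRCm38.p6), which held all 10 genes, and shared 3′ ends were searched with blastn 2.17.0 (last 300 bases, at least 150 aligned bases at 90% identity). Alternatives used limma 3.58.1 (voom) and DESeq2 1.42.0. The test was also run on simulated data, whose outcome is not reported here. Figures were drawn with matplotlib 3.10.9.

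The 10 genes and all lists were chosen with earlier results of these data known. Named were the 10 genes, in each list the called genes, the gene with the smallest p and those with the lowest and highest fold change at a mean log2 CPM of 4 or more, the 5 genes most like Nasp, and Mki67, Pcna and Myog. Further names are marked where they stand. The values of 1 gene that this rule names are not reported here. Lists were the 10 genes, other histone chaperones, histone variants, replication-dependent histone genes, histone transcript processing, fork proteins, S phase and proliferation genes, complexes that share RBBP4 or RBBP7, and markers of MuSCs, myocytes, fibro-adipogenic, endothelial, mural and immune cells.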

Additional observations from a re-analysis of the deposited data

Results flagged for a closer look

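Dixon's ratio, the distance from an extreme library to its neighbour as a share of the full spread, was computed in 70 groups of 4 libraries. It passed the 95% limit in 7, where chance gives 3.5 (about 1 in 20). Of the histone chaperones, Rbbp7 was at 370.0 CPM in the vehicle library of pool 2, beside 247 to 259.5 CPM in the other vehicle libraries (ratio 0.896). Ssrp1 was at 479.5 CPM in the NAM/PN library of pool 3, beside 591 to 599 CPM (ratio 0.930). Among the other named genes, Ccne1 was at 25.7 CPM in the vehicle library of pool 3, beside 65.3 to 67.5 CPM (ratio 0.947), and Paxbp1 at 58.6 CPM in the NAM/PN library of pool 4, beside 49.9 to 50.6 CPM (ratio 0.922). Marcksl1 stood apart in both conditions, at 62.7 CPM in the vehicle library of pool 3, beside 43.9 to 44.9 CPM (ratio 0.949) and at 107 CPM in the NAM/PN library of pool 4, beside 81.6 to 84.2 CPM (ratio 0.900). The ribosomal RNA gene took 18.7% of the reads of vehicle replicate 3 against 9.09% to 9.59% (ratio 0.949).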

How the results depend on the processing

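Nasp was higher with NAM/PN under all 19 alternatives to the edgeR fit. Its adjusted p passed 0.05 in all 7 that kept every library, from 6.61e-05 with DESeq2 to 0.0348 with the pool as a replicate block. Leaving out libraries or pools gave log2 fold changes of 0.63 to 0.80 and 0 to 1 called genes of the 10, and fewer samples then enter the fit. The replicate block changed no call of the 10 genes, and among the genes named it ended the call of H3f3b, which left 1 called histone variant. The count of all changed genes, 154 in the main edgeR fit, was 289 with DESeq2, 366 without the filter on low counts, 232 with voom, 244 at an adjusted p under 0.10 and 42 to 177 in fits that left out a library or pool. In these reduced fits 0 to 1 histone variants were called. Values near 0 changed sign. Asf1a was 0.15 with voom, and Supt16 was 0.0050 with the replicate block and 0.081 with voom. Across the reduced fits Asf1a ran from -0.36 to 0.24, Supt16 from -0.13 to 0.13, Rbbp4 from -0.027 to 0.20, Rbbp7 from -0.037 to 0.31, H2afj from -0.25 to 0.39, Hist1h1e from -0.27 to 0.29, Casp8ap2 from -0.49 to 0.011, Pold3 from -0.18 to 0.060 and Mki67 from -0.16 to 0.16. Hist1h1e was -0.058 with the replicate block and Pold3 was 0.060 with voom. Of the 5 genes most like Nasp, 1 was also found by Spearman's rank correlation. The cause of these shifts was not tested. Levels under 0.295 to 0.464 CPM could not be detected at this depth.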

Other observations

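RBBP4 and RBBP7 also belong to the NuRD, SIN3, PRC2, MuvB and NURF complexes. Of 26 genes for the other subunits, 15 had a log2 fold change above 0 (median 0.12), beside 49.8% of all tested genes. In edgeR's test 0 were called, and 2 had an unadjusted p under 0.05, both lower, beside 5.32% of all tested genes. Chd3, a remodeler of NuRD, was at 60.9, 64.5, 116 and 110.02 CPM with vehicle in pools 1 to 4 and at 43.2, 38.9, 55.4 and 73.3 CPM with NAM/PN. It was lower in all 4 pools with overlapping groups, with a log2 fold change of -0.74 (adjusted p = 0.294 in edgeR's test). Sap30, a subunit of the SIN3 complex, was at 29.6, 30.9, 21.5 and 26.8 CPM with vehicle and at 17.1, 12.1, 20.3 and 8.59 CPM with NAM/PN. Its groups did not overlap, as for 4.42% of all tested genes in this direction, and its log2 fold change was -0.91 (adjusted p = 0.427 in edgeR's test). Among the genes at a mean log2 CPM of 4 or more, Mta1 had the highest value, 0.36 (adjusted p = 0.746 in edgeR's test), which was 0.17 without vehicle replicate 3 and 0.57 without vehicle replicate 1.

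Of the marker lists not described so far, the 8 fibro-adipogenic genes summed to 225 to 286 CPM in vehicle cultures and 113 to 157 CPM with NAM/PN. Col3a1 was called lower (log2 fold change -1.17, adjusted p = 0.00255 in edgeR's test), Cd34, which MuSCs also carry, was at -0.71 (adjusted p = 0.331), and Pdgfra, Lum and Dpt were at 0 in every library. The 8 mural genes summed to 285 to 611 CPM and 95.9 to 156 CPM, and Acta2 was called lower (log2 fold change -2.38, adjusted p = 0.000147 in edgeR's test), while Notch3 had -0.50 (adjusted p = 0.779 in edgeR's test) and Myh11 was at 0 in every library. The endothelial list summed to 3.46 to 19.4 CPM and 9.85 to 29.5 CPM, with Egfl7 at 1.02 (adjusted p = 0.687 in edgeR's test), and the immune list to 0.979 to 7.58 CPM and 3.50 to 7.14 CPM, with Cd68 at 0.43 (adjusted p = 0.976 in edgeR's test). Of the myocyte list, Myog had a log2 fold change of -2.22 (adjusted p = 0.000232 in edgeR's test), and Mymk, Acta1, Myh3, Tnnt1, Tnni1 and Mylpf were called lower as well. In the MuSC list 0 of 8 genes were called, 1 of the 8 was above 0 and 1 had an unadjusted p under 0.05 in edgeR's test, Des at -0.41 (adjusted p = 0.460). Of all tested genes, 49.8% were above 0 and 5.32% were lower at this level. Myf5 had the lowest value of that list, -0.68 (adjusted p = 0.602 in edgeR's test), at 41.4 ± 17.0 CPM in vehicle cultures and 25.8 ± 9.21 CPM after NAM/PN (SD, n = 4 each), and Sdc4 the highest, 0.11 (adjusted p = 0.958 in edgeR's test).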
